A study of Homo sapiens with 28 samples.

Results

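Transcription factor genes that steer myeloid cell fate were followed in mouse bone marrow: Cebpa, Cebpb, Cebpd, Cebpe, Spi1 (which encodes PU.1), Klf4, Gfi1 and Gfi1b. These 8 genes, of 21883 protein-coding genes, were picked by name, as known myeloid regulators, with earlier results of these data known. Each gene was described by its interval from end to end and by all peaks up to 50 kb either side, where enhancers may lie. The assay was chromatin immunoprecipitation sequencing of 2 marks on lysine 27 of histone H3. Acetylation (H3K27ac) is found at active promoters and enhancers, and trimethylation (H3K27me3), written by the Polycomb enzyme EZH2, is found at silenced genes.

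The comparison was of 5 DKOITD mice with 3 WT mice of the C57BL/6 strain, and every mouse gave a library of each mark, 16 in all. In DKOITD mice both alleles of Ezh2 and both of Runx1 were floxed (fl/fl), 1 allele of Rag1 carried a Cre recombinase (Cre/+), and 1 allele of the receptor kinase gene Flt3 carried an internal tandem duplication (ITD/+). WT mice carried the same floxed Ezh2 and Runx1 alleles, with normal Rag1 (+/+) and Flt3 (+/+). Rag1 is active in lymphoid progenitors and precursors, and a Cre driven from it acts in those cells and their progeny. DKOITD marrow was used whole, whereas Kit-positive cells were enriched from WT marrow on CD117 microbeads, so genotype and cell preparation cannot be told apart in any comparison. Ages were not among the labels.

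C/EBP alpha and PU.1 open the myeloid programme in progenitors, and C/EBP epsilon acts later, in the maturation of granulocytes. C/EBP beta and delta take part in stress and inflammatory responses of myeloid cells, and KLF4 favours the monocyte branch. GFI1 and its relative GFI1B are repressors: GFI1 is needed for neutrophil formation and restrains monocyte genes, and GFI1B serves red cells and megakaryocytes.

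The H3K27ac libraries held 9435546 to 11458360 fragments in DKOITD mice and 6515614 to 7072997 in WT mice, so depth also went with genotype and the 2 cannot be told apart. The H3K27me3 libraries held 3343831 to 6411696 fragments in DKOITD mice and 2766339 to 3994483 in WT mice. The genome under H3K27ac peaks spanned 7.03 to 23.8 Mb in DKOITD mice and 16.8 to 29.7 Mb in WT mice, and under H3K27me3 peaks 3.17 to 40.5 Mb in DKOITD mice and 13.8 to 27.3 Mb in WT mice. DKOITD48, DKOITD53e and DKOITD83 had H3K27ac territories of 13.1, 7.03 and 7.46 Mb, below every WT mouse, and DKOITD52 and DKOITD185 had 20.4 and 23.8 Mb, within the WT range. A peak that was not called is not proof that the mark was absent. In whole tissue, fewer cells of a type and less mark per cell cannot be told apart.

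Marker genes of several cell types also differed between the genotypes. A gene counted as marked if at least 200 bp of its interval lay under peaks. Of 14 neutrophil markers, 1 to 3 carried H3K27ac in DKOITD mice and 10 to 13 in WT mice, with a summed covered length of 0.447 to 5.19 kb in DKOITD mice and 19.1 to 29.7 kb in WT mice. The granule genes Ltf, Camp and Lcn2 were at 0 in all 5 DKOITD mice, and Lcn2 was marked in 2 of 3 WT mice. On the same list, Csf3r was marked in all 8 mice and Stfa2l1 was at 0 in all 8. Of 10 monocyte markers, 3 to 9 were marked in DKOITD mice and 1 to 6 in WT mice, with 2.30 to 16.2 kb in DKOITD mice and 0.419 to 5.90 kb in WT mice. Csf1r was marked in 5 of 5 DKOITD and 0 of 3 WT mice, and Ly6c2 in 2 of 5 DKOITD and 3 of 3 WT mice. Ccr2, Fcgr1 and Clec4a1, at 0 in all 3 WT mice, were also at 0 in 3, 4 and 3 of the 5 DKOITD mice. Of 14 dendritic cell markers, 10 to 12 were marked in DKOITD mice, over 13.6 to 56.0 kb, and 5 to 9 in WT mice, over 10.9 to 21.9 kb. The antigen presentation gene H2-Aa was marked in 5 of 5 DKOITD and 0 of 3 WT mice, and the dendritic cell receptor gene Xcr1 in all 8 mice. Of 15 stem and progenitor markers, 2 to 7 were marked in DKOITD mice, over 1.95 to 26.3 kb, and 9 to 12 in WT mice, over 36.7 to 74.5 kb. Of 15 erythroid markers, 2 to 3 were marked in DKOITD mice, over 0.763 to 4.08 kb, and 4 to 7 in WT mice, over 3.72 to 8.80 kb, with the haemoglobin genes Hbb-b1 and Hba-a1 at 0 in all 8 mice. The B-cell, T-cell and mast cell or basophil lists had 0 to 3, 1 to 3 and 0 to 2 marked genes in DKOITD mice, over 0 to 2.63, 0.786 to 2.03 and 0 to 1.92 kb, against 2 to 8, 2 to 3 and 2 to 3 in WT mice, over 1.04 to 8.53, 1.57 to 2.85 and 5.31 to 12.2 kb. Kit itself, the target of the bead enrichment, had H3K27ac over 0.844 kb in DKOITD48 and 0 kb in the other 4 DKOITD mice, against 3.13, 1.01 and 1.72 kb in WT1, WT2 and WT3. The counts of marked genes overlapped between genotypes for the monocyte, B-cell, T-cell and mast cell or basophil lists. No count was set against the share of all genes marked in each library. DKOITD48, DKOITD53e and DKOITD83 had smaller H3K27ac territories than any WT mouse, and the part of that in the counts was not tested. The part of cell makeup in the differences at the 8 regulators was not tested.

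Over the gene intervals, H3K27ac changed at 2 of the 8 regulators, and they moved in opposite directions. Klf4 had more H3K27ac in DKOITD mice and Gfi1 had less. The test was limma on log2(covered kb + 0.5) over 11038 genes covered in at least 3 of the 8 libraries, with Benjamini-Hochberg adjustment and a threshold of 0.05. Of the 8 regulators 7 could be tested, and Gfi1b, with no H3K27ac peak on it in any mouse, could not. The 1 regulator called lower stands against 4.76% of all tested genes called lower, and the 1 called higher against 0.924% called higher. The median difference was -0.23 over the 7 tested regulators and -0.26 over all tested genes. H3K27ac marked 5 of the 8 intervals (Cebpa, Cebpb, Cebpd, Spi1 and Klf4) in all 8 mice, against 31.2% of all protein-coding genes. No regulator was marked by it in all 3 WT and no DKOITD mice, as 0.617% of genes were, nor in all 5 DKOITD and no WT mice, as 0.343% were.

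**Figure D1:**
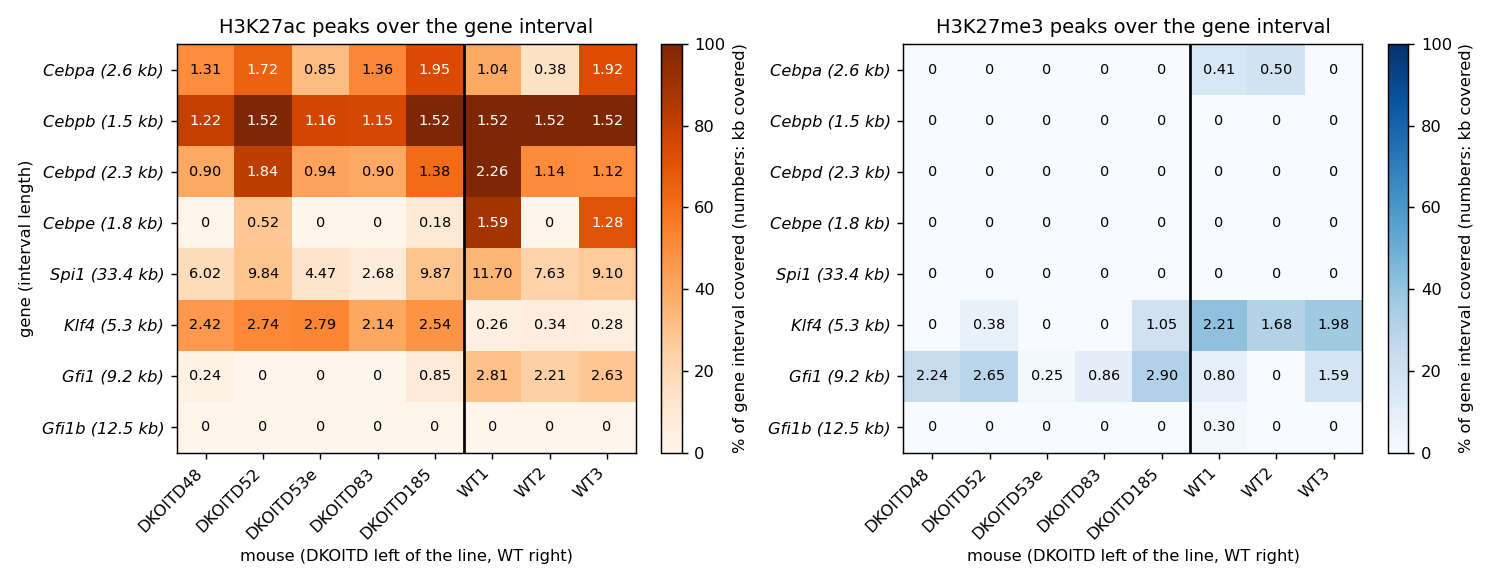
Length of each gene interval under H3K27ac and H3K27me3 peaks, in kb, with the 8 regulators in rows and the mice in columns, the 5 DKOITD mice left of the 3 WT mice. Klf4 holds 2.14 to 2.79 kb of H3K27ac in DKOITD mice and 0.261 to 0.337 kb in WT mice, and Gfi1 holds 0 to 0.846 kb in DKOITD mice and 2.21 to 2.81 kb in WT mice.

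Klf4 (chr4:55527137-55532475 in mm10) encodes a zinc finger factor that promotes monocyte differentiation. H3K27ac peaks covered 2.42, 2.74, 2.79, 2.14 and 2.54 kb of it in DKOITD48, DKOITD52, DKOITD53e, DKOITD83 and DKOITD185, the order kept below for DKOITD mice, against 0.261, 0.337 and 0.280 kb in WT1, WT2 and WT3. Every DKOITD mouse was above every WT mouse, a separation seen at 1.99% of tested genes. DKOITD53e had the highest value over the interval, but its whole peak, of 3.86 kb, was shorter than those of DKOITD48, DKOITD52 and DKOITD185. The means were 2.53 ± 0.264 kb in DKOITD mice and 0.293 ± 0.0396 kb in WT mice (SD, n = 5 and 3). The difference was 1.93 on the log2(kb + 0.5) scale (SE 0.137, limma adjusted p = 0.000272). It stayed past the threshold under all 16 alternatives run, at 1.44 to 2.74.

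The Klf4 signal was a single peak in each mouse, wider in DKOITD marrow. That region, chr4:55529688-55534494, runs over the high-coordinate end of the gene and beyond it. Peaks filled 4.19, 4.76, 3.86, 3.17 and 4.4 kb of it in DKOITD mice, against 0.861, 0.890 and 1.03 kb in WT mice. By length, the Klf4 peak ranked at the 98.4 to 99.7 percentile of its own library in DKOITD mice and at the 42.1 to 51.0 percentile in WT mice. The authors' fold enrichment of the strongest Klf4 peak was 6.47 to 11.98 in DKOITD mice and 3.77 to 4.89 in WT mice, which placed it at the 73.0 to 89.8 percentile of its library in DKOITD mice and at the 30.4 to 59.3 percentile in WT mice. The raw fold values come from libraries that differ in depth and input between the genotypes, whereas the percentiles are within a library.

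The 50 kb either side of Klf4 held no other H3K27ac peak in any mouse, so the covered length in the flanks belonged to the end of the same peak. It was 1.77, 2.02, 1.07, 1.03 and 1.87 kb in DKOITD mice, against 0.60, 0.553 and 0.750 kb in WT mice. The groups did not overlap, as at 1.15% of genes tested in the flanks, but the difference of 0.83 did not pass (SE 0.276, limma adjusted p = 0.141). It passed when only peaks with a −log10 q of at least 5 were kept (2.0, adjusted p = 0.0143) and when each library was limited to its strongest 8825 peaks (1.65, adjusted p = 0.0119).

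H3K27me3 lay over the same end of Klf4, and the order of the groups was turned round. It covered 0, 0.379, 0, 0 and 1.05 kb of the gene in DKOITD mice, against 2.21, 1.68 and 1.98 kb in WT mice. Every DKOITD mouse was below every WT mouse, as at 5.43% of genes tested for this mark, and 3 DKOITD mice had no peak. The means were 0.286 ± 0.458 kb in DKOITD mice and 1.95 ± 0.268 kb in WT mice (SD, n = 5 and 3). The difference of -1.80 did not pass over the 4811 genes tested (SE 0.508, limma adjusted p = 0.230). The 3 DKOITD mice with no H3K27me3 peak on Klf4 were DKOITD48, DKOITD53e and DKOITD83, whose H3K27me3 territories of 5.20, 3.17 and 5.24 Mb were the smallest of the 8 mice.

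In WT mice the 2 marks overlapped on Klf4. Within the region above, the same bases lay under peaks of both marks over 0, 0.379, 0, 0 and 1.05 kb in DKOITD mice, against 0.861, 0.173 and 1.03 kb in WT mice. The narrow H3K27ac peak of WT1 and WT3 lay wholly inside an H3K27me3 peak. Such overlap in bulk marrow may come from the same or from different cells, which cannot be told apart here.

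Gfi1 (chr5:107716655-107725805) encodes the repressor GFI1, and its H3K27ac was lower in DKOITD mice. Peaks covered 0.237, 0, 0, 0 and 0.846 kb of the gene in DKOITD mice, against 2.81, 2.21 and 2.63 kb in WT mice. Every DKOITD mouse was below every WT mouse, as at 15.1% of tested genes, and DKOITD185 was the only DKOITD mouse with a peak at the high-coordinate end, where all 3 WT mice had theirs. The means were 0.217 ± 0.367 kb in DKOITD mice and 2.55 ± 0.309 kb in WT mice (SD, n = 5 and 3). The difference was -2.21 (SE 0.338, limma adjusted p = 0.00916), and -3.72 with a pseudocount of 0.1 kb (adjusted p = 0.0375).

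The call at Gfi1 rested on few mice. It was lost without WT1 (-2.14, adjusted p = 0.0686), without WT3 (-2.18, adjusted p = 0.0623) and without DKOITD48, DKOITD53e and DKOITD83 together (-1.89, adjusted p = 0.168), while the direction stayed. The Gfi1 peaks were also weak, with a −log10 q of 3.95, 2.61 and 3.11 in WT mice, so a minimum of 5 removed them and left the gene interval untested. With the strongest 8825 peaks of each library the interval could not be tested either.

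H3K27me3 covered 2.24, 2.65, 0.254, 0.865 and 2.90 kb of Gfi1 in DKOITD mice, against 0.803, 0 and 1.59 kb in WT mice. The groups overlapped, since DKOITD53e was below WT1 and WT3. The means were 1.78 ± 1.16 kb in DKOITD mice and 0.799 ± 0.797 kb in WT mice (SD, n = 5 and 3). The difference of 0.83 did not pass (SE 0.70, limma adjusted p = 0.597). Over the 4.72 kb of the on-gene H3K27ac region, chr5:107722996-107727712, H3K27me3 filled 3.68, 4.56, 0.254, 1.42 and 4.72 kb in DKOITD mice, against 0.803, 0 and 2.13 kb in WT mice. In the same bases H3K27ac filled 0, 0, 0, 0 and 1.90 kb in DKOITD mice, against 4.72, 3.47 and 3.87 kb in WT mice. Thus 4 DKOITD mice had H3K27me3 without H3K27ac there, and WT2 had H3K27ac without H3K27me3.

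No regulator passed the H3K27me3 test over the gene interval, and only Klf4 and Gfi1 were covered in enough libraries to be tested. At an unadjusted p under 0.05, 1 of the 2 was lower (Klf4), against 7.46% of tested genes lower and 0.229% higher at the same limit. Over all genes 0.935% were called lower and 0% higher after adjustment. No regulator was marked by H3K27me3 in all 8 mice, as 5.04% of genes were, in all 3 WT and no DKOITD mice, as 0.398% were, or in all 5 DKOITD and no WT mice, as 0.0137% were. None had every DKOITD mouse above every WT mouse over the interval, as 0.104% of tested genes did, or in the flanks, as 0.0588% did.

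**Figure D2:**
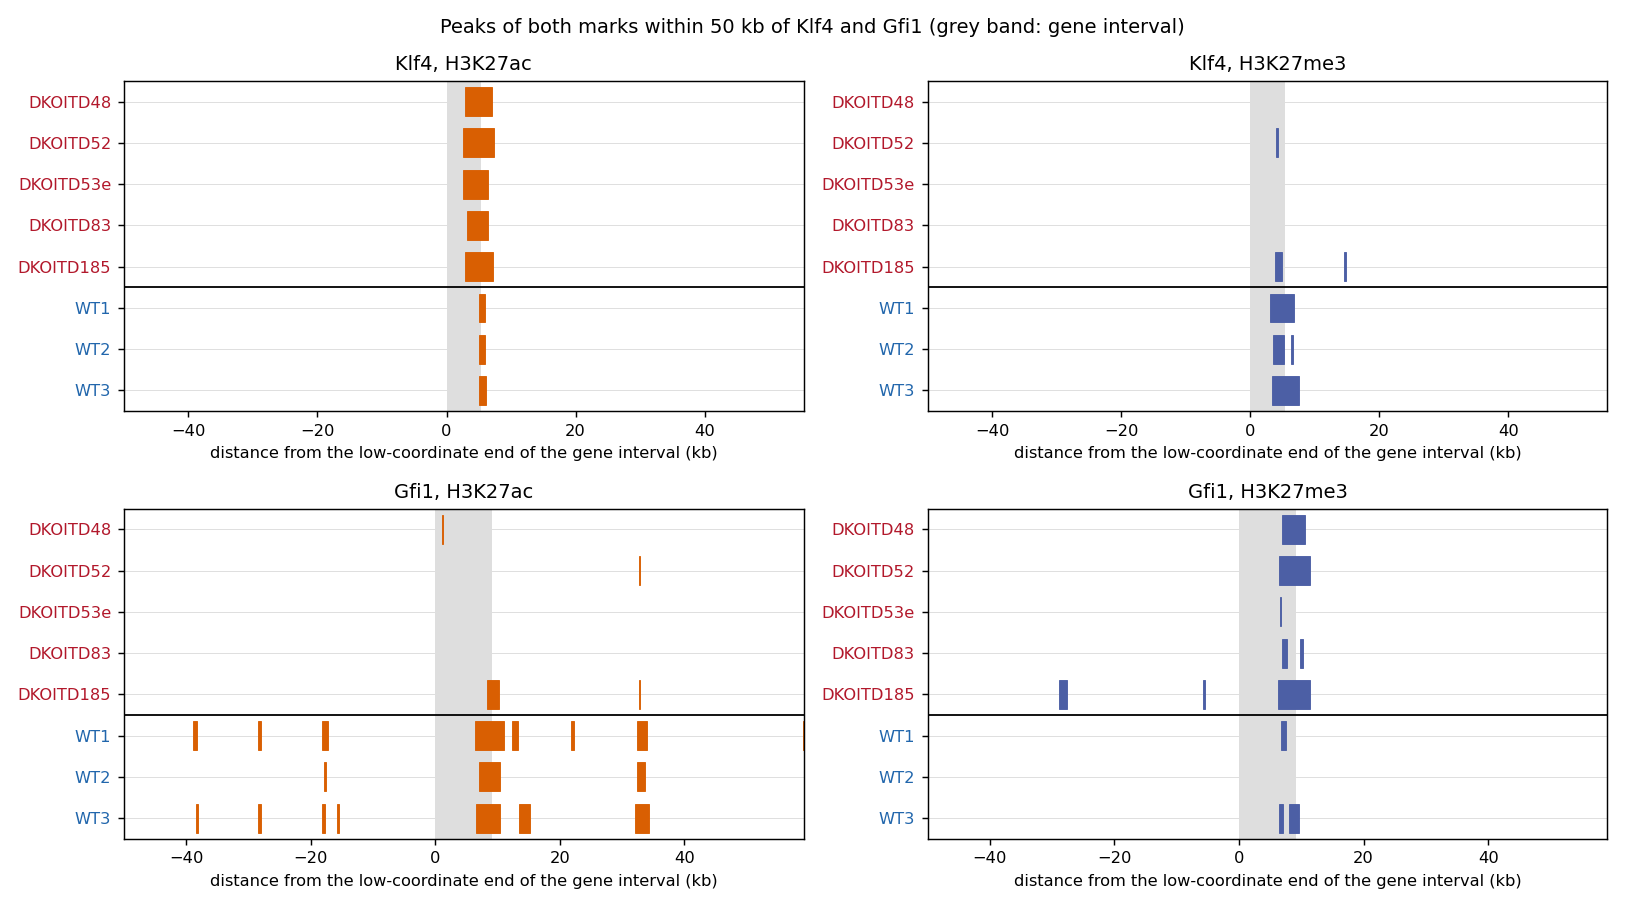
Called peaks of H3K27ac (orange) and H3K27me3 (blue) within 50 kb of Klf4 and Gfi1, by distance in kb from the low-coordinate end of the gene, with the gene interval in grey and the 5 DKOITD mice above the 3 WT mice. Klf4 carries a wide H3K27ac peak in DKOITD mice (3.17 to 4.76 kb) and H3K27me3 in DKOITD52, DKOITD185 and all 3 WT mice, and Gfi1 carries H3K27me3 in all 5 DKOITD mice, WT1 and WT3, and H3K27ac at its high-coordinate end in DKOITD185 and all 3 WT mice.

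The flanks of Gfi1 also had less H3K27ac in DKOITD mice. Peaks covered 0, 0.242, 0, 0 and 1.27 kb of the flanks in DKOITD mice, against 7.36, 2.97 and 6.82 kb in WT mice. In DKOITD185 and the WT mice, part of this was the peak on the gene, which runs past its high-coordinate end. The flank value is therefore not separate from the value over the gene. No DKOITD mouse reached a WT mouse, as at 14.5% of genes tested in the flanks. The difference was -3.07 (SE 0.481, limma adjusted p = 0.00878). It was lost without WT1 (-2.85, adjusted p = 0.0830), without WT3 (-2.91, adjusted p = 0.0681) and without DKOITD48, DKOITD53e and DKOITD83 (-2.35, adjusted p = 0.0836). With a −log10 q of at least 5 the Gfi1 flanks could not be tested.

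Merged over the 8 mice, H3K27ac formed 11 regions at or near Gfi1. Of these, 1 was held by all 3 WT and no DKOITD mice, as were 3.4% of all regions. A mouse held a region when its peaks covered at least 10% of it. That region, chr5:107698466-107699448, lies -17.2 kb from the gene on the low-coordinate side, and peaks filled 0.959, 0.391 and 0.556 kb of it in WT mice. A second stretch, chr5:107748667-107750968, begins 22.9 kb beyond the gene inside Evi5, a neighbouring gene first named as a viral integration site. Peaks filled 0, 0.242, 0, 0 and 0.213 kb of it in DKOITD mice, against 1.71, 1.31 and 2.30 kb in WT mice.

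H3K27me3 in the Gfi1 flanks covered 1.44, 2.21, 0, 0.558 and 3.86 kb in DKOITD mice, against 0, 0 and 0.538 kb in WT mice. In DKOITD48, DKOITD52, DKOITD185 and WT3, some or all of this was again the end of a peak on the gene. DKOITD53e had none, so the groups overlapped, and the difference of 1.37 did not pass (SE 0.890, limma adjusted p = 0.71). The matching values for Klf4 were 0, 0, 0, 0 and 0.390 kb in DKOITD mice, against 1.42, 0.281 and 2.17 kb in WT mice. DKOITD185 was above WT2, and the difference of -1.50 did not pass either (SE 0.588, limma adjusted p = 0.71). Of the 8 regulators 2 could be tested in the H3K27me3 flanks and 0 passed, against 0% of 10200 genes in either direction. At an unadjusted p under 0.05 it was 1 of the 2 (Klf4, lower), against 4.83% of genes lower and 0.049% higher.

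Gfi1b (chr2:28609450-28621982) had no H3K27ac peak over its interval in any mouse, and its only H3K27me3 on the gene was 0.302 kb in WT1. Its flanks held H3K27ac over 2.29, 2.56, 1.34, 1.45 and 3.02 kb in DKOITD mice, against 5.38, 3.37 and 6.15 kb in WT mice. The groups did not overlap, as at the 14.5% of genes given above, and the difference of -1.06 did not pass (SE 0.334, limma adjusted p = 0.119). With each library limited to its strongest 8825 peaks the difference was -0.25 (adjusted p = 0.480).

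Near Gfi1b, 2 of the 5 H3K27ac regions were held by every WT mouse and no DKOITD mouse, as were 3.4% of all regions. The first, chr2:28597557-28600044, lies at -9.41 kb, and peaks filled 1.44, 0.382 and 1.56 kb of it in WT mice. The second, chr2:28601367-28603549, lies at -5.90 kb, and peaks filled 1.65, 1.05 and 2.18 kb of it in WT mice. The 2 regions held by all 8 mice lie over other genes, Gtf3c5, for a subunit of a transcription factor of RNA polymerase III, and Tsc1, a regulator of the mTOR pathway. Gtf3c5 had 0.522 to 1.13 kb in DKOITD mice and 0.997 to 1.19 kb in WT mice, and Tsc1 had 0.575 to 1.20 kb in DKOITD mice and 0.944 to 1.28 kb in WT mice.

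**Figure D3:**
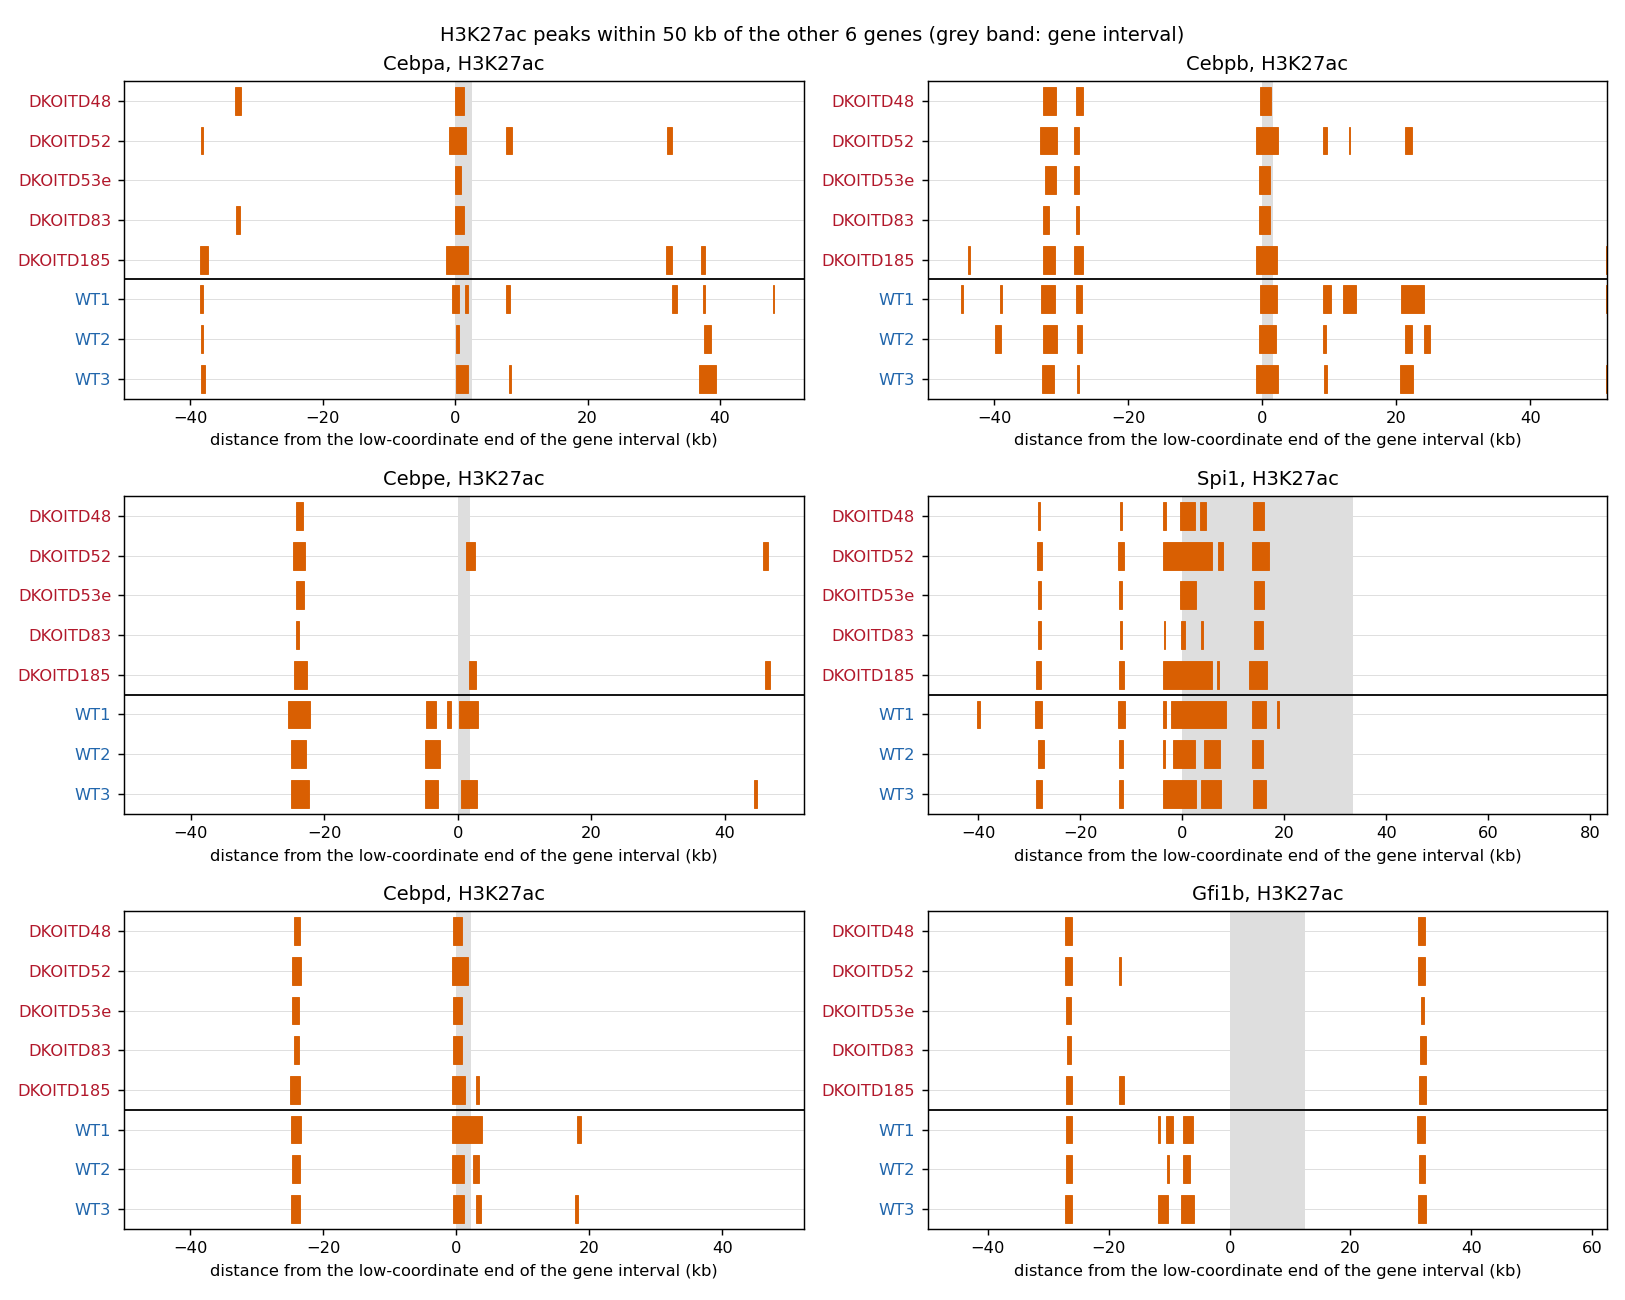
Called H3K27ac peaks within 50 kb of the other 6 regulators (Cebpa, Cebpb, Cebpd, Cebpe, Spi1 and Gfi1b), by distance in kb from the low-coordinate end of the gene, with the gene interval in grey and the 5 DKOITD mice above the 3 WT mice. Spi1 and Cebpb carry peaks in all 8 mice, and the low-coordinate sides of Cebpe and Gfi1b carry peaks at 1 and 2 regions that are held by all 3 WT mice and no DKOITD mouse.

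Cebpa (chr7:35119293-35121928) encodes C/EBP alpha, which granulocyte and monocyte progenitors require. H3K27ac covered 1.31, 1.72, 0.848, 1.36 and 1.95 kb of its interval in DKOITD mice, against 1.04, 0.382 and 1.92 kb in WT mice. The lowest value was in WT2 and the groups overlapped. The difference of 0.35 was about as large as its SE of 0.333 (limma adjusted p = 0.527). It depended on the peak list: with the strongest 8825 peaks of each library it was 1.93 and passed as higher in DKOITD mice (SE 0.187, adjusted p = 0.00051), and with a −log10 q of at least 5 it was 1.64 and did not pass (adjusted p = 0.230). It was -0.085 with array weights, which let more variable libraries count less, and -0.023 without WT2.

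In the Cebpa flanks H3K27ac covered 0.880, 2.89, 0, 0.550 and 4.05 kb in DKOITD mice, against 2.74, 1.26 and 3.45 kb in WT mice. DKOITD185 was the highest of all mice and DKOITD53e had none. The difference of -0.80 did not pass (SE 0.676, limma adjusted p = 0.472), and its sign turned under both stricter peak lists (0.70 and 0.91). Of 8 regions, the one that differed most, chr7:35156147-35158718, begins 34.2 kb beyond the gene, and peaks filled 0.486 kb of it in DKOITD185 and 0 kb in the other DKOITD mice, against 0.36, 0.981 and 2.57 kb in WT mice. Cebpa had H3K27me3 on its interval over 0.411 kb in WT1 and 0.497 kb in WT2, and over 0 kb in WT3 and all 5 DKOITD mice.

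Cebpb (chr2:167688915-167690432), which encodes C/EBP beta, was covered by H3K27ac over 75.7 to 100% of its interval in DKOITD mice and 100% in WT mice. The values were 1.22, 1.52, 1.16, 1.15 and 1.52 kb in DKOITD mice, against 1.52, 1.52 and 1.52 kb in WT mice. Since the interval measures 1518 bp, the WT mice, DKOITD52 and DKOITD185 were at the ceiling, and this measure cannot show a larger extent. The flanks held 3.32, 6.87, 2.95, 1.83 and 5.03 kb in DKOITD mice, against 11.2, 7.11 and 6.43 kb in WT mice. DKOITD52 exceeded WT3, and the difference of -1.03 did not pass (SE 0.406, limma adjusted p = 0.201). With the strongest 8825 peaks of each library it was -0.27.

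The difference near Cebpb lay mostly on the high-coordinate side, where no protein-coding gene is annotated. The region that differed most, chr2:167709427-167713870, begins 19.0 kb beyond the gene. Peaks filled 0.976 kb of it in DKOITD52 and 0 kb in the other 4 DKOITD mice, against 3.45, 1.91 and 1.93 kb in WT mice. By contrast, 2 regions on the low-coordinate side over Tmem189 were held by all 8 mice, at 0.835 to 2.43 kb and 0.428 to 1.28 kb in DKOITD mice and at 1.75 to 2.07 kb and 0.367 to 0.896 kb in WT mice.

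Cebpd (chr16:15887286-15889545), for C/EBP delta, overlaps at its high-coordinate end with Spidr, annotated from 15889224. Of the peaks on Cebpd, that of WT1 alone reached into Spidr. H3K27ac covered 0.898, 1.84, 0.936, 0.90 and 1.38 kb in DKOITD mice, against 2.26, 1.14 and 1.13 kb in WT mice. DKOITD52 and DKOITD185 exceeded WT2 and WT3, and the difference was -0.23 (SE 0.259, limma adjusted p = 0.586). The flanks held 1.39, 1.98, 1.51, 1.26 and 2.54 kb in DKOITD mice, against 4.6, 2.73 and 2.99 kb in WT mice. Here the groups did not overlap, which 14.5% of genes also showed in this direction, and the difference of -0.82 did not pass (SE 0.302, limma adjusted p = 0.176).

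Cebpe (chr14:54710363-54712174) encodes C/EBP epsilon, which granulocytes need to form their secondary granules. H3K27ac covered 0, 0.523, 0, 0 and 0.182 kb of it in DKOITD mice, against 1.59, 0 and 1.28 kb in WT mice. WT2, like 3 DKOITD mice, had no peak on the gene. The difference of -1.0 did not pass (SE 0.483, limma adjusted p = 0.265), and passed without WT2 (-1.65, adjusted p = 0.0376).

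Of 6 H3K27ac regions at or near Cebpe, 1 was held by all 3 WT mice, WT2 included, and no DKOITD mouse, as were 3.4% of all regions. This region, chr14:54705465-54707642, lies at -2.72 kb on the low-coordinate side, and peaks filled 1.61, 2.18 and 1.83 kb of it in WT mice. Over the whole flanks H3K27ac covered 1.14, 3.26, 1.11, 0.555 and 3.58 kb in DKOITD mice, against 6.83, 4.32 and 5.90 kb in WT mice. The groups did not overlap, again as at 14.5% of genes, and the difference of -1.52 did not pass (SE 0.473, limma adjusted p = 0.116). With the bases of other protein-coding genes left out of the flanks, it passed at -2.17 (adjusted p = 0.0374), and without DKOITD185 at -1.76 (adjusted p = 0.0474).

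Spi1 (chr2:91082374-91115759) encodes PU.1, an ETS factor whose level helps set myeloid against lymphoid fate. It held the most H3K27ac of the 8 regulators in every mouse and is also the longest, at 33386 bp. Peaks covered 6.02, 9.84, 4.47, 2.68 and 9.87 kb of it in DKOITD mice, against 11.7, 7.63 and 9.10 kb in WT mice. DKOITD52 and DKOITD185 lay within the WT range, and the other 3 DKOITD mice, which had the smallest peak territories, lay below it. The difference of -0.61 did not pass (SE 0.514, limma adjusted p = 0.477), and without those 3 mice it was 0.074. No mouse had an H3K27me3 peak on Spi1 or within 50 kb of it.

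In all 8 mice Spi1 held 2 H3K27ac regions, and WT1 had a further peak of 0.361 kb inside the gene. The larger, chr2:91078513-91090946, spans the low-coordinate end of the gene, and peaks filled 4.82, 10.5, 3.05, 1.46 and 9.96 kb of it in DKOITD mice, against 11.4, 7.73 and 10.5 kb in WT mice. The smaller, chr2:91095402-91099278, lies inside the gene, and peaks filled 2.2, 3.17, 1.86, 1.81 and 3.62 kb of it in DKOITD mice, against 2.77, 2.05 and 2.49 kb in WT mice. The spread between DKOITD mice was 4.07 kb (SD) at the larger region and 0.817 kb at the smaller, against 1.91 and 0.363 kb between WT mice. In the flanks, H3K27ac covered 2.07, 5.78, 1.57, 1.56 and 5.83 kb in DKOITD mice, against 6.39, 4.24 and 5.71 kb in WT mice. DKOITD52 and DKOITD185 again lay within the WT range, and the difference was -0.80 (SE 0.467, limma adjusted p = 0.335).

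H3K27me3 was nearly missing from the peak lists around the other 6 regulators. Cebpb, Cebpd and Cebpe, like Spi1, had 0 kb of it on the gene in all 8 mice. In the flanks it covered 0.237 kb in DKOITD48 and 0.296 kb in DKOITD185 near Cebpb, and 0.258 kb in DKOITD53e near Cebpe. It covered 0.247 kb in WT1 near Cebpd, 0.273 kb in WT1 near Gfi1b, and 0.534 kb in WT2 and 0.208 kb in WT3 near Cebpa. All other mice had 0 kb at these genes, and none of the 6 reached the 3 libraries needed for a test.

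Across the H3K27ac flanks of all 8 regulators, 1 (Gfi1) was called lower, against 3.62% of 14928 tested genes, and 0 were called higher, against 0.362%. At an unadjusted p under 0.05, 5 of the 8 were lower (Cebpb, Cebpd, Cebpe, Gfi1 and Gfi1b), against 18.7% of all genes, and 1 was higher (Klf4), against 1.7%. The median difference was -0.93 over the 8 regulators and -0.45 over all tested genes. That genome-wide median was -0.30 with the strongest 8825 peaks of each library and 0.026 without DKOITD48, DKOITD53e and DKOITD83. A negative flank value was therefore common over the genome in the lists as deposited.

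**Figure D4:**
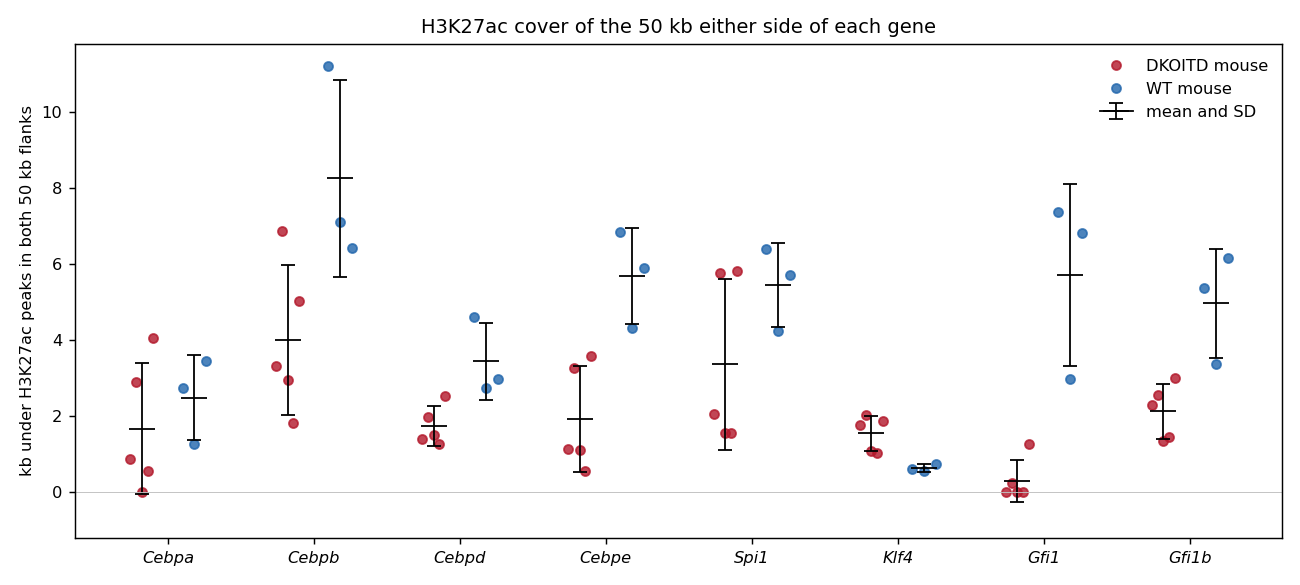
Length under H3K27ac peaks within 50 kb either side of each regulator, in kb, as 1 point per mouse with the mean and SD of each genotype, DKOITD left of WT. Gfi1 shows 0 to 1.27 kb in DKOITD mice and 2.97 to 7.36 kb in WT mice, and Klf4 is the 1 regulator whose DKOITD mice all lie above the WT mice.

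Of 50 H3K27ac regions within reach of the regulators, 4 were held by all 3 WT and no DKOITD mice, against 3.4% of all 32836 merged regions. None was held by all 5 DKOITD and no WT mice, against 0.493%. Regions held by all 8 mice numbered 14, against 19.9% of all regions. Of these 14, 6 lay on a regulator and 8 over another protein-coding gene. The 4 WT-held regions, near Gfi1, Gfi1b (2) and Cebpe, lay over no protein-coding gene. With peaks of a −log10 q of at least 5 the count was 0 of 17, against 83 of 11005 regions over the genome. With the strongest 8825 peaks it was 2 of 22, both near Gfi1, against 358 of 13750. When holding a region meant 50% of it the count was 3 of 50, with 1 near Cebpe and 2 near Gfi1, against 899 of 32836. Neither region near Gfi1b was counted under these 3 alternatives, and the one near Cebpe was not counted under the first 2. Of 14 H3K27me3 regions, 0 met either rule, against 0.314% and 0.00725% of 41384 regions, and 0 were held by all 8 mice, against 1.95%.

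**Figure D5:**
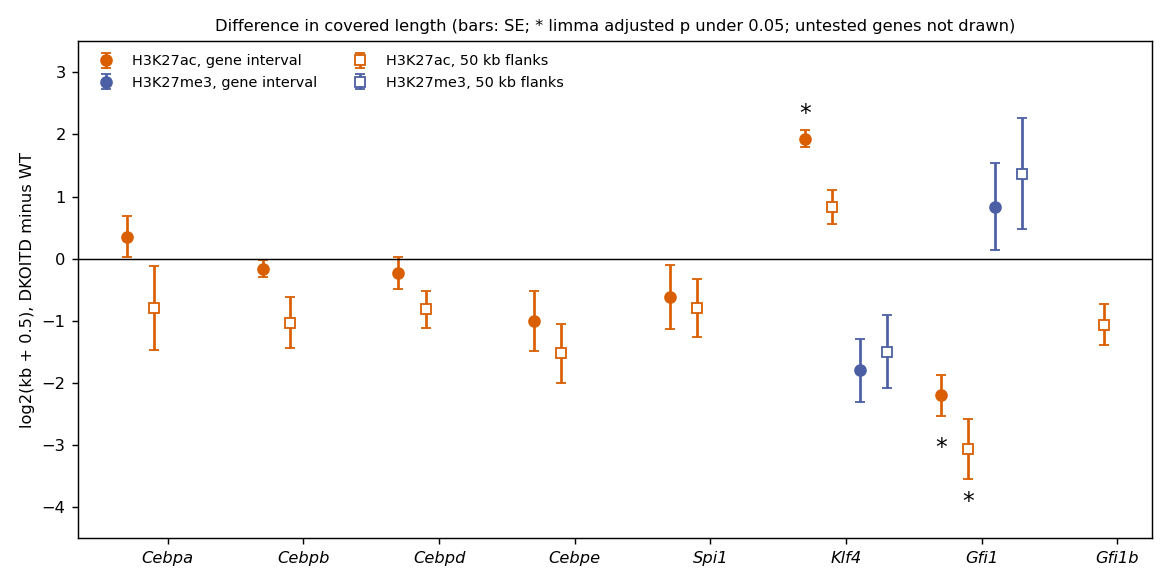
Difference of covered length on the log2(kb + 0.5) scale, DKOITD minus WT, with SE bars, for both marks over the gene interval (filled) and the 50 kb flanks (open). Stars mark a limma adjusted p under 0.05: Klf4 at 1.93 and Gfi1 at -2.21 over the gene, and Gfi1 at -3.07 in the flanks.

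Genes that work with the regulators were followed in lists. Of 29 partner factors, which bind beside or compete with the 8, 26 were tested over the gene for H3K27ac, 1 was called lower and 0 higher, with a median of -0.09, where 4.76% of all genes were called lower. The 1 was Ets1, a lymphoid ETS factor related to PU.1, with 0.277, 0.911, 0, 0.631 and 0.672 kb in DKOITD mice, against 9.90, 5.39 and 4.76 kb in WT mice (-2.87, SE 0.380, limma adjusted p = 0.00478). For H3K27me3, 13 partners were tested and 2 were called lower, Rara and Irf8, where 0.935% of all genes were. Rara, a nuclear receptor of granulocyte differentiation, had 0 kb in all 5 DKOITD mice, against 7.94, 4.99 and 7.00 kb in WT mice (-3.81, SE 0.378, limma adjusted p = 0.0212). Irf8, a PU.1 partner that drives monocyte and dendritic cell fate, had 0 kb in all 5 DKOITD mice, against 1.38, 0.869 and 1.12 kb in WT mice (-1.69, SE 0.233, limma adjusted p = 0.0219).

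Known target genes of the regulators were called lower more often than higher, as were all tested genes (525 lower and 102 higher). Of 30 targets, 23 were tested for H3K27ac over the gene, 6 were called lower and 1 higher, with a median of -1.23, where 4.76% and 0.924% of all genes were called. Of the 6, 5 are also on the neutrophil marker list described above. Ltf, for the granule protein lactoferrin, had 0 kb in all 5 DKOITD mice, against 3.97, 1.43 and 3.82 kb in WT mice (-2.74, SE 0.266, limma adjusted p = 0.00129). Ngp, for another granule protein, had 1.83 kb in DKOITD52 and 0 kb in the other 4 DKOITD mice, against 3.21 kb in each WT mouse (-2.45, SE 0.517, limma adjusted p = 0.0330). Csf1r, the monocyte growth factor receptor and a PU.1 target, was the gene called higher, with 1.44, 3.20, 0.737, 0.907 and 3.16 kb in DKOITD mice, against 0.150, 0 and 0 kb in WT mice (1.98, SE 0.402, limma adjusted p = 0.0280). It is also on the monocyte marker list, of which 7 were tested, 0 called lower and 1 higher.

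Of 11 co-repressor genes of GFI1 and GFI1B, 9 were tested for H3K27ac over the gene and 0 were called, with a median of -0.06. Of 14 modulators of C/EBP, 9 were tested and 0 were called, with a median of -0.40. For H3K27me3, 2 co-repressors, 7 modulators and 3 targets were tested and 0 were called. In the H3K27ac flanks, 4 of 29 tested targets and 1 of 13 tested modulators were called lower, where 3.62% of all genes were, and 0 of 26 partners and 0 of 10 co-repressors were called.

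The covered length of several regulators was correlated with the size of each library's peak territory. Across the 8 mice, Pearson's r between log2 coverage of the gene by H3K27ac and log2 H3K27ac territory was 0.952 for Spi1, 0.924 for Cebpb, 0.785 for Cebpd, 0.730 for Cebpe, 0.705 for Gfi1, 0.257 for Cebpa and -0.52 for Klf4. These values describe 8 mice of 2 genotypes that share the libraries measured. Territory also differed between the genotypes, so the 2 cannot be told apart in these values. For Cebpb, the WT mice, DKOITD52 and DKOITD185 all sat at the ceiling set by the length of the gene. The profiles most like that of Spi1 were Nfix (r = 0.995), Csrnp1 and Pan2, and those most like Cebpb were Cspp1 (r = 0.999), Plagl2 and Gm31649. Klf4 was most like Cltb (r = 0.995), Spag6 and Cdc42bpb, and Gfi1 was most like Alox5 (r = 0.988), Il12a and Dnajc6. Cebpa was most like Mtch2 (r = 0.948), Noc2l and Pdp1, Cebpd like Zer1 (r = 0.991), Hdhd2 and Pom121, and Cebpe like Tmem260 (r = 0.989), C1qtnf12 and Stum. These were the closest of 11021 to 11028 genes over 100 kb away or on another chromosome. Being the highest of so many values over 8 mice, they serve as a description only.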

How the data were processed

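The 8 members and the gene lists were chosen with earlier results of these data known. Per the labels' protocols, fixation was in 1% formaldehyde for 10 min, and chromatin was sheared to 200 to 500 bp. Per the submitters' processing notes, Bowtie2 2.2.5 and MACS2 2.0.10 were used with build mm10. Broad peaks were called by the authors for each library, per the file headers, with MACS 2.0.10.20131216 at a q threshold of 0.05, keeping 1 fragment per position, all DKOITD libraries against the input of DKOITD48 and all WT libraries against that of WT1. Per the file headers, each peak carries the authors' pileup signal (fragment coverage), the −log10 of its p-value and q-value, and a fold enrichment, a ratio over local background. These values described, ranked or filtered peaks within a library. Fold enrichments at Klf4 are also given for both genotypes, without a test.

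Peaks of a library were merged and the covered length of each gene interval and of its 50 kb flanks was taken in Python 3.11.15. A peak that runs past the end of a gene counts in part towards both. Gene positions came from RefSeq on GRCm38, the assembly behind mm10. That table gives no strand, so sides are named by coordinate, with negative distances on the low side. limma 3.58.1 in R 4.3.3 (lmFit, eBayes with trend) tested log2(covered kb + 0.5) for genes covered in at least 3 of 8 libraries, DKOITD minus WT, with Benjamini-Hochberg adjustment, and was tested on simulated data. Extents understate change at low values and saturate at the gene's length. p-values rest on separate mice. All 8 members were named, list genes were named as the 3 per mark and direction with the largest difference among those that passed, and the regions named were those lost, gained, held by all mice on a member, or most different for a member and mark. Other genes near a member were named where a described peak lies over them. Markers at 0, Csf3r, Kit and the remaining regions given with values were chosen after their values were seen. Alternatives were stricter or equal peak lists, pseudocounts of 0.1 and 1 kb, no filter, array weights, other intervals and flanks, other overlap rules, each mouse left out, and DKOITD48, DKOITD53e and DKOITD83 left out together. The human lines and the input libraries were not used here.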

Additional observations from a re-analysis of the deposited data

Results flagged for a closer look

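Of 21 sets of 5 DKOITD values tested, 4 held a mouse far from the other 4. Chance gives about 1 in 20 for values that vary continuously, which does not hold here, since in each of these 4 sets 3 or 4 mice had 0 kb and any called peak stands apart. DKOITD185 had 0.846 kb of H3K27ac on Gfi1, against 0 to 0.237 kb in the other DKOITD mice and 2.21 to 2.81 kb in WT mice. DKOITD185 also had 1.27 kb of H3K27ac in the Gfi1 flanks, against 0 to 0.242 kb in the other DKOITD mice and 2.97 to 7.36 kb in WT mice. A single peak of this mouse, chr5:107724960-107726861, gave its value on Gfi1 and most of its value in the flanks. The same mouse had 0.390 kb of H3K27me3 in the Klf4 flanks, where the other DKOITD mice had 0 kb and WT mice had 0.281 to 2.17 kb. DKOITD53e had 0.258 kb of H3K27me3 in the Cebpe flanks, over Slc7a8, where the other 7 mice had 0 kb. DKOITD185 had the largest peak territories of the DKOITD mice, 23.8 Mb of H3K27ac and 40.5 Mb of H3K27me3, and the part of that in its values was not tested.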

How the results depend on the processing

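No paired analysis was possible because DKOITD and WT mice share no replicate numbers. Of the alternatives for the counts of regulators called and of regions, 94 stayed within 1.5 times the value reported and 23 did not. This compared numbers only, not which regulators were called or in which direction. With equal peak numbers the count for H3K27ac over the gene stayed at 2, but with 0 lower and 2 higher (Klf4 and Cebpa). With a −log10 q of at least 5 the H3K27ac flank count stayed at 1, but it was Klf4, higher, and Gfi1 could not be tested. The count for H3K27ac over the gene (2) was 1 with a −log10 q of at least 5 and 1 without DKOITD48, DKOITD53e and DKOITD83, and 1 to 3 with single mice left out. The count for the H3K27ac flanks (1) was 2 with equal peak numbers, 2 without the bases of other genes and 0 without those 3 mice. It was 0 to 2 with single mice left out. Array weights gave 8 of 8 there, where they called 8526 genes lower and 1774 higher of 14928. They also gave 1 call each for H3K27me3 over the gene and in the flanks (0 and 0), both Klf4, lower. Over all genes they called 3899 of 4811 lower over the gene and 8752 of 10200 lower in the flanks. Their estimate for the H3K27ac flanks stopped before it converged. The H3K27ac regions lost (4) were 0 with the stricter q and 2 with equal peak numbers. They were 4 to 7 with single mice left out, where 1119 to 2334 regions were lost over the genome. Those gained (0) were 1 with the stricter q, against 84 of 11005 over the genome, and 1 with equal peak numbers, against 291 of 13750. They were 1 when held meant 50% of the region, against 72 of 32836, and 3 of 48 without the 3 mice, against 1863 of 31409. The H3K27me3 regions lost (0) were 0 to 1 with single mice left out. For single regulators 280 alternatives kept direction and call, 16 added a call, 6 removed one and 10 turned the sign of a difference that was not called. The turned values over the gene were -0.085 for Cebpa with array weights, 0.11 for Cebpd and 0.074 for Spi1 without the 3 mice. With single mice left out, Cebpa ranged from -0.023 (without WT2) to 0.71 and Cebpd from -0.36 to 0.017 (without WT1). Those in the flanks were, for Cebpa, 0.70 with the stricter q, 0.91 with equal peak numbers, 0.48 without the 3 mice and 0.028 with 25 kb flanks, and for Spi1 0.10 without the 3 mice. With the stricter q no regulator could be tested for H3K27me3. The cause of these changes was not tested. Genotype, cell preparation and H3K27ac depth go together in all 8 mice, and covered length shows the extent of a mark and not its height.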
